A study of Mus musculus with 17 samples.

Results

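The genes described here are 41 genes of DNA replication and of the step from G1 into S phase, chosen by name as a functional group, out of 20227 genes with a value on the arrays. All 41 passed the filter on dim probe sets. Their expression was followed on 17 Affymetrix exon arrays of 32D, a murine line resembling myeloblasts that depends on the cytokine IL-3. The FLT3/ITD group held 9 arrays, each of a line with a different human FLT3 internal tandem duplication, a leukaemia mutation that makes this receptor tyrosine kinase signal without ligand, and these lines grew without IL-3. They are numbered here 1 to 9. The other groups had 2 arrays each: human wild-type FLT3 with FLT3 ligand at 20 ng/mL, human wild-type FLT3 without it, the empty retroviral vector pLXRN, and parental 32D. The wild-type, vector and parental cells grew in mouse IL-3 at 1 ng/mL. Whether IL-3 stayed in the ligand cultures is not stated outright. The label of that group can also be read as a line made with the ligand gene, and the growth protocol was followed. The transduced lines were populations of many clones. In the comparison of ITD lines with the IL-3-grown controls, the mutation and the absence of IL-3 cannot be told apart.

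Replication starts with the loading of the MCM helicase onto origins by the origin recognition complex, Cdc6 and Cdt1, and with its activation by Cdc45 and the GINS complex. Polymerases, the Pcna clamp, its loader and a ligase then copy the strands, and enzymes of nucleotide synthesis supply the precursors. Cyclin E drives the entry into S phase, and most of these genes are known targets of E2F transcription factors. In a blood cell line, cytokine signals feed into this switch.

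A gene's value is the mean log2 signal of its probe sets, and differences are on the log2 scale with the standard error (SE) of a limma fit over all genes. Calls were made where the adjusted p (Benjamini-Hochberg, taken over the 20227 genes) was under 0.05. The titles call the paired arrays biological replicates, but whether they came from separate lines is not settled, so p-values measure only the spread between these arrays. The median log2 signal of an array was 4.63 to 4.69, and precision is limited by how few arrays there are. Of 9 measured myeloblast markers, Mpo, Prtn3, Ctsg and Myb were bright in all groups (lowest array 9.94), while Cd34 and Kit were dim (highest array 5.88). The list itself moved. In the ITD lines 5 of 9 were called lower than in the control mean and 0 higher, with a median of −0.36. Among all genes 8.15% were called lower and 11.2% higher in that comparison. Against wild-type FLT3 alone, 3 of the 9 had a positive difference and 6 a negative one. Mpo averaged 10.96 in ITD lines, 11.56 with wild-type FLT3 and ligand, 11.48 with wild-type FLT3, 11.44 in vector cells and 12.6 in parental cells. Lymphoid markers were dim on every array, with a highest array value of 6.59. Mature neutrophil and macrophage markers moved with the ITD group as well. Of the neutrophil markers, 7 of 11 were lower and 1 was higher than in the controls. The array medians of this list lay between −1.36 and −0.36 in ITD lines and between −0.19 and 0.14 in the 3 IL-3-grown control groups. Of 7 macrophage markers 5 were called lower and 0 higher, with array medians between −1.32 and −0.23 in ITD lines and between −0.20 and 0.23 in those controls. Of 7 mast cell and basophil markers 2 were called higher and 1 lower, and their array medians lay between −0.22 and 0.39 in ITD lines, between −0.92 and −0.77 with wild-type FLT3 and ligand, and between −1.18 and 1.54 in the controls. The part of these markers in the results on the 41 genes was not tested.

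Across the 5 groups, cells with wild-type FLT3 and ligand had the highest group mean for 32 of the 41 genes. The ITD lines were highest for 3, wild-type FLT3 without ligand for 1, and parental cells for 5. Vector cells were lowest for 22, wild-type FLT3 without ligand for 12 and parental cells for 7. Relative to the mean of the wild-type, vector and parental groups, the median over the 41 genes was 0.21 in ITD lines, 0.41 in wild-type FLT3 with ligand, 0.04 in wild-type FLT3, −0.07 in vector cells and 0.01 in parental cells. Each ligand array lay above all 6 IL-3-grown control arrays in 31 of the 41 genes and below them in 0. Among all genes, 17.9% and 19.9% were above the 6 controls on ligand arrays 1 and 2, and 11.7% and 17.7% were below. In bulk RNA, a change in the share of cells in S phase and a change in these transcripts per cell cannot be told apart.

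**Figure D1:**
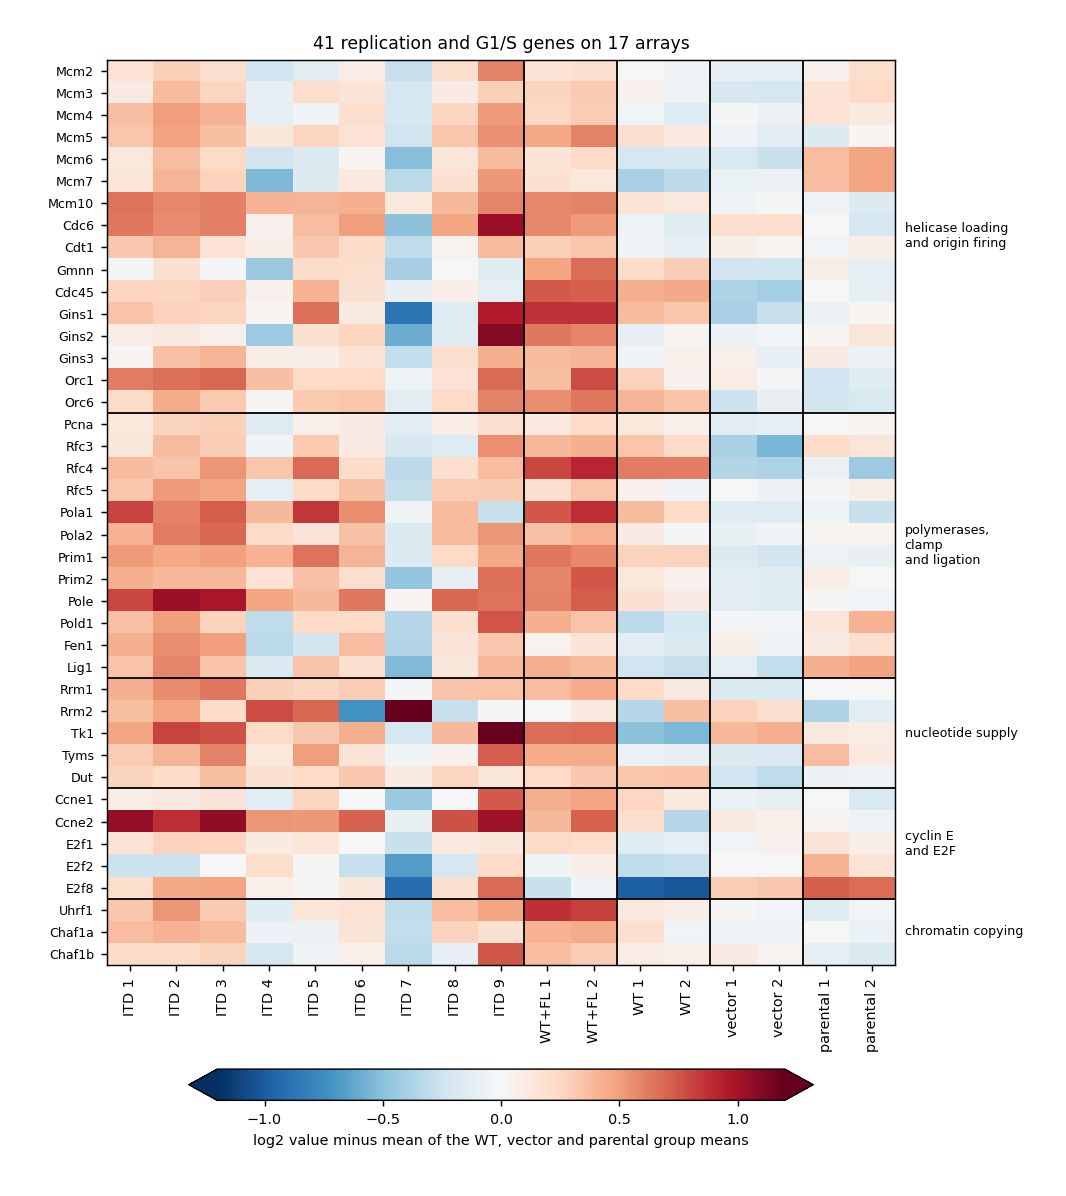
Heat map of the 41 genes (rows, grouped by role) on the 17 arrays (columns), coloured by the log2 value minus the mean of the wild-type, vector and parental group means; colours saturate at the ends of the bar. The 2 ligand arrays are high in most rows, and ITD line 7 is low in most rows.

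The first question is how the ITD lines compared with the IL-3-grown control lines. Set against the mean of the wild-type, vector and parental groups, 10 of the 41 genes rose in the ITD lines and 0 fell. The background was 11.2% of all genes called higher and 8.15% lower. The difference was positive for 39 of the 41 genes, with a median of 0.21 (1.15-fold), against −0.01 over all genes. By role, 4 of 12 genes of polymerases, clamp and ligation rose, 3 of 5 of nucleotide supply, 2 of 16 of helicase loading and origin firing, 1 of 5 of the cyclin E and E2F group, and 0 of 3 of chromatin copying. The 9 ITD arrays lay above all 6 control arrays for 0 of the 41 members and for 0.974% of all genes. With so low a share, a count of 0 among 41 genes does not set the members apart. The count of 10 was 20 without ITD line 7, and 6 without wild-type array 2, vector array 2 or either parental array. It was 4 without the vector group, and 0 with each control line counted as 1 unit. Calls over all genes in these alternative fits are not given here. A change particular to the members cannot be read from these counts.

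Among the helicase genes, Mcm10, which helps to assemble and activate the helicase at origins, was called. Its values in the ITD lines were 7.99 at the lowest, 8.29 at the median and 8.52 at the highest, against 8.44 and 8.46 with wild-type FLT3 and ligand, 8.03 and 7.995 with wild-type FLT3, 7.81 and 7.84 in vector cells, and 7.82 and 7.70 in parental cells. Only the lowest ITD line overlapped the controls, and the group difference was 0.47 ± 0.07 (SE; adjusted p = 0.000355). Orc1, a subunit of the origin recognition complex, had 6.47, 6.90 and 7.22 as its lowest, median and highest ITD values, against 6.90 and 7.32 with ligand, 6.80 and 6.58 with wild-type FLT3, 6.62 and 6.50 in vector cells, and 6.30 and 6.39 in parental cells. These groups overlapped more, and Orc1 was higher in the ITD lines by 0.40 ± 0.12 (adjusted p = 0.0259). The helicase subunits Mcm2 to Mcm7 showed smaller differences, between 0.04 for Mcm6 and 0.26 for Mcm5, and none of these 6 was called. Cdc6, which loads the helicase, differed by 0.41 ± 0.16 (adjusted p = 0.0873).

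Of the copying machinery itself 4 genes were called: Pole and Pola1, the catalytic subunits of polymerases epsilon and alpha, Pola2, the second subunit of polymerase alpha, and Prim1, the primase that makes RNA primers. Pole ranged from 8.15 through a median of 8.78 to 9.15 in the ITD lines, against 8.71 and 8.84 with ligand, 8.30 and 8.22 with wild-type FLT3, 7.99 and 7.98 in vector cells, and 8.14 and 8.09 in parental cells. All ITD lines but the lowest were above every control array, and the difference was 0.63 ± 0.12 (1.55-fold; adjusted p = 0.00163). Prim1 had 9.55, 10.16 and 10.36 as its lowest, median and highest ITD values, against 10.34 and 10.28 with ligand, 9.98 and 9.98 with wild-type FLT3, 9.54 and 9.49 in vector cells, and 9.65 and 9.62 in parental cells. Prim1 was higher in the ITD lines by 0.39 ± 0.09 (adjusted p = 0.00856), and the wild-type cells lay inside the ITD range. Pola1 was higher by 0.44 ± 0.15 (adjusted p = 0.0477) and Pola2 by 0.36 ± 0.11 (adjusted p = 0.0268). Pcna, the sliding clamp, was the brightest of the 41 genes on these arrays, which does not rank transcripts, and differed by 0.09 ± 0.06 (adjusted p = 0.345).

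Of the genes of nucleotide supply, thymidine kinase Tk1 had ITD values of 9.28, 9.93 and 10.94 (lowest, median, highest), against 10.16 and 10.17 with ligand, 9.00 and 8.95 with wild-type FLT3, 9.88 and 9.93 in vector cells, and 9.60 and 9.58 in parental cells. All 9 ITD lines were above the wild-type arrays, while the vector arrays lay inside the ITD range, and the difference from the control mean was 0.52 ± 0.17 (adjusted p = 0.0467). Rrm1, the large subunit of ribonucleotide reductase, ranged from 11.22 through 11.58 to 11.87 in the ITD lines, against 11.61 and 11.69 with ligand, 11.48 and 11.35 with wild-type FLT3, 11.08 and 11.08 in vector cells, and 11.24 and 11.24 in parental cells. Its difference was 0.35 ± 0.08 (adjusted p = 0.00452). Dut, which removes dUTP, was higher by 0.23 ± 0.05 (adjusted p = 0.00439), and its wild-type arrays (9.74 and 9.74) were inside the ITD range of 9.51 to 9.77. Rrm2, the small reductase subunit, rested on 1 dim probe set, with ITD values from 4.69 to 6.70.

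Cyclin E2 (Ccne2), an activator of the kinase that opens S phase, had the largest difference of the 41 genes. Its ITD values were 7.16 at the lowest, 8.01 at the median and 8.31 at the highest, against 7.63 and 7.95 with ligand, 7.45 and 6.90 with wild-type FLT3, 7.35 and 7.30 in vector cells, and 7.28 and 7.19 in parental cells. All ITD lines but the lowest were above all 6 control arrays, and Ccne2 was higher by 0.72 ± 0.15 (1.64-fold; adjusted p = 0.00349). Cyclin E1 (Ccne1) differed by 0.09 ± 0.13 and E2f1, an activating E2F, by 0.10 ± 0.07, and neither was called. E2f2 and the replication licensing inhibitor Gmnn were the 2 members with a negative difference, of −0.13 ± 0.12 and −0.05 ± 0.10.

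**Figure D2:**
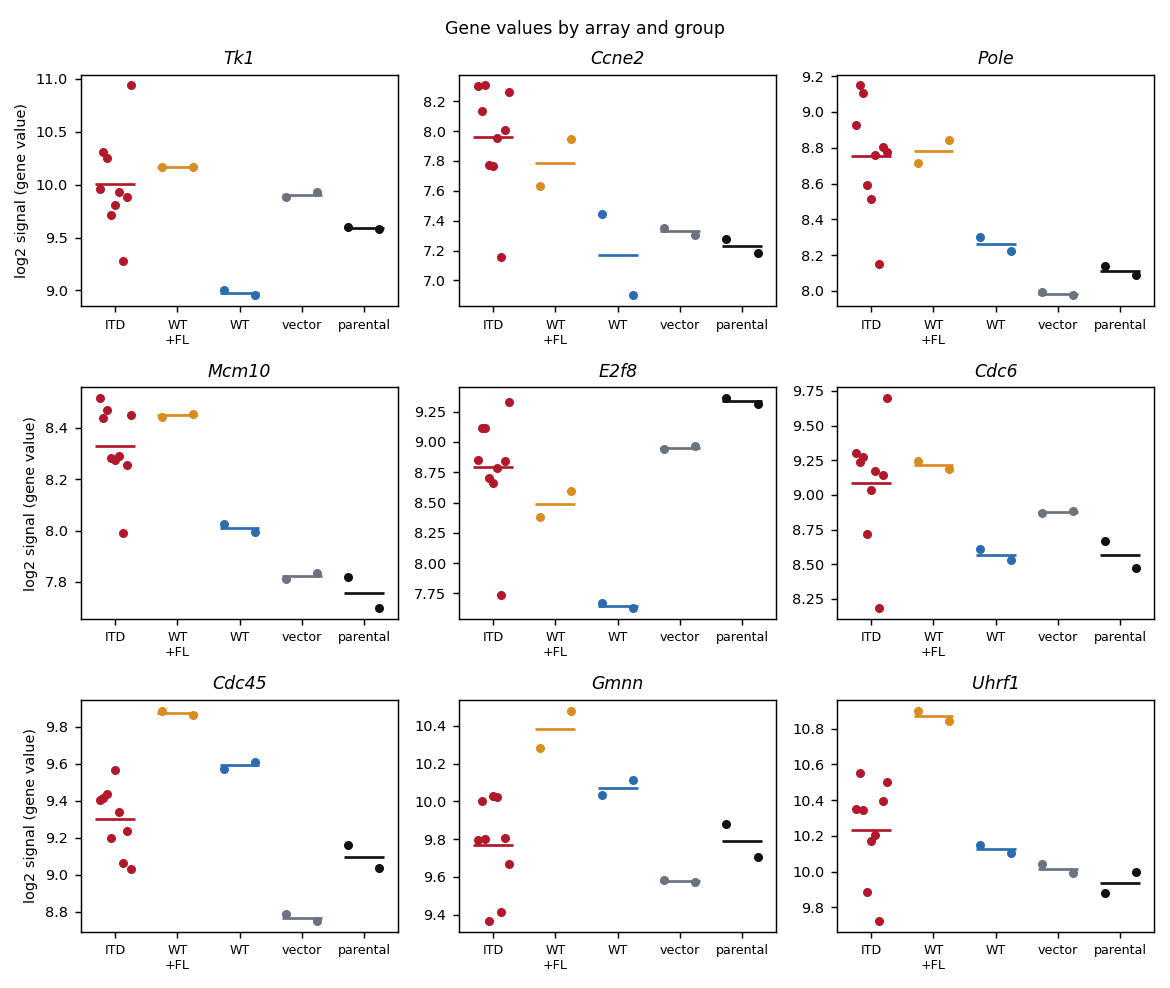
Gene values (log2 signal) of 9 members on every array, by group; points are arrays and horizontal lines are group means. Pole, Mcm10 and Ccne2 are higher in most ITD lines than in the controls, and Uhrf1 and Cdc45 are highest with wild-type FLT3 and ligand.

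The controls differed among themselves, so each was also used alone. The ITD mean was above each of the wild-type, vector and parental means for 23 of the 41 genes, as for 19.9% of all genes, and within their range for the other 18. No member (0 of 41) was called higher against all 3 of them, and the share of all genes called in this way is not given here. Against vector cells 9 genes rose and 0 fell, beside 8.82% higher and 5.21% lower among all genes, and the median was 0.26. The called genes had differences up to 0.77 ± 0.18 for Pole, and they included the clamp loader subunits Rfc4 (0.67 ± 0.17) and Rfc3 (0.62 ± 0.15) and Cdc45 (0.53 ± 0.12). This count was 1 without either vector array and 18 without ITD line 7. Against parental cells 9 rose and 0 fell, beside 10.3% higher and 6.72% lower among all genes, and the median was 0.18. Here Ccne2 (0.73 ± 0.23), Pole (0.64 ± 0.18), Orc1 (0.59 ± 0.18) and Mcm10 (0.57 ± 0.11) had the largest called differences. This count was 1 without parental array 1 and 0 without parental array 2.

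Against wild-type FLT3 without ligand, 3 of the 41 genes rose in the ITD lines and 0 fell, where 3.27% of all genes were called higher and 4.44% lower. They were E2f8, an atypical E2F that represses transcription (1.14 ± 0.26, adjusted p = 0.0118), Tk1 (1.03 ± 0.26, adjusted p = 0.0216) and Ccne2 (0.79 ± 0.23, adjusted p = 0.043). E2f8 had ITD values of 7.73, 8.84 and 9.33 (lowest, median, highest), against 8.38 and 8.60 with ligand, 7.67 and 7.63 with wild-type FLT3, 8.94 and 8.97 in vector cells, and 9.36 and 9.31 in parental cells. Its wild-type arrays were the lowest of the 17, and its parental arrays were among the highest. All 9 ITD arrays were above both wild-type arrays for 3 members, as for 5.57% of all genes. They were below both for 2 members, Gmnn and Cdc45, as for 9.33% of all genes. The count of 3 was 0 without either wild-type array and 10 without ITD line 7.

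The ligand comparison sets wild-type FLT3 cells with ligand against wild-type FLT3 cells without it. Since it is not stated outright whether IL-3 stayed in the ligand cultures, the ligand and a possible absence of IL-3 cannot be told apart here. With ligand, 40 of the 41 genes had a higher mean than without it, with a median difference of 0.37 (1.29-fold), against −0.01 over all genes. Both ligand arrays were above both arrays without ligand for 38 members, as for 25% of all genes, and below them for Dut alone. In the fit of all 17 arrays 0 members were called, where 0% of all genes were called higher and 0% lower. The smallest adjusted p of a member was 0.445, for Tk1 and Uhrf1, and 13 members, all higher with ligand, had an unadjusted p under 0.05, against 7.69% of all genes. That fit takes most of its spread from the 9 different ITD lines.

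Fitted on the 8 arrays of the wild-type, ligand, vector and parental groups alone, 25 of the 41 genes rose with ligand and 0 fell, where 4.21% of all genes were called higher and 1.47% lower. They were 12 of 16 genes of helicase loading and origin firing, 7 of 12 of polymerases, clamp and ligation, 3 of 5 of nucleotide supply, 2 of 5 of the cyclin E and E2F group and 1 of 3 of chromatin copying. Tk1 had the largest difference in this fit, 1.19 ± 0.06 (adjusted p = 4.08e-05). E2f8 followed with 0.84 ± 0.08, Uhrf1, which recruits the maintenance DNA methyltransferase to new strands, with 0.74 ± 0.06, and the ligase Lig1 with 0.67 ± 0.08. Of the 6 helicase subunits Mcm2 to Mcm7, 5 were called, between 0.29 ± 0.06 for Mcm3 and 0.51 ± 0.06 for Mcm7, and Mcm2 was not (0.21 ± 0.06, adjusted p = 0.114). The GINS subunits Gins1, Gins2 and Gins3 rose by 0.51 ± 0.07, 0.64 ± 0.08 and 0.39 ± 0.09. Pcna (0.08 ± 0.05) and Dut (−0.06 ± 0.06) were not called.

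**Figure D3:**
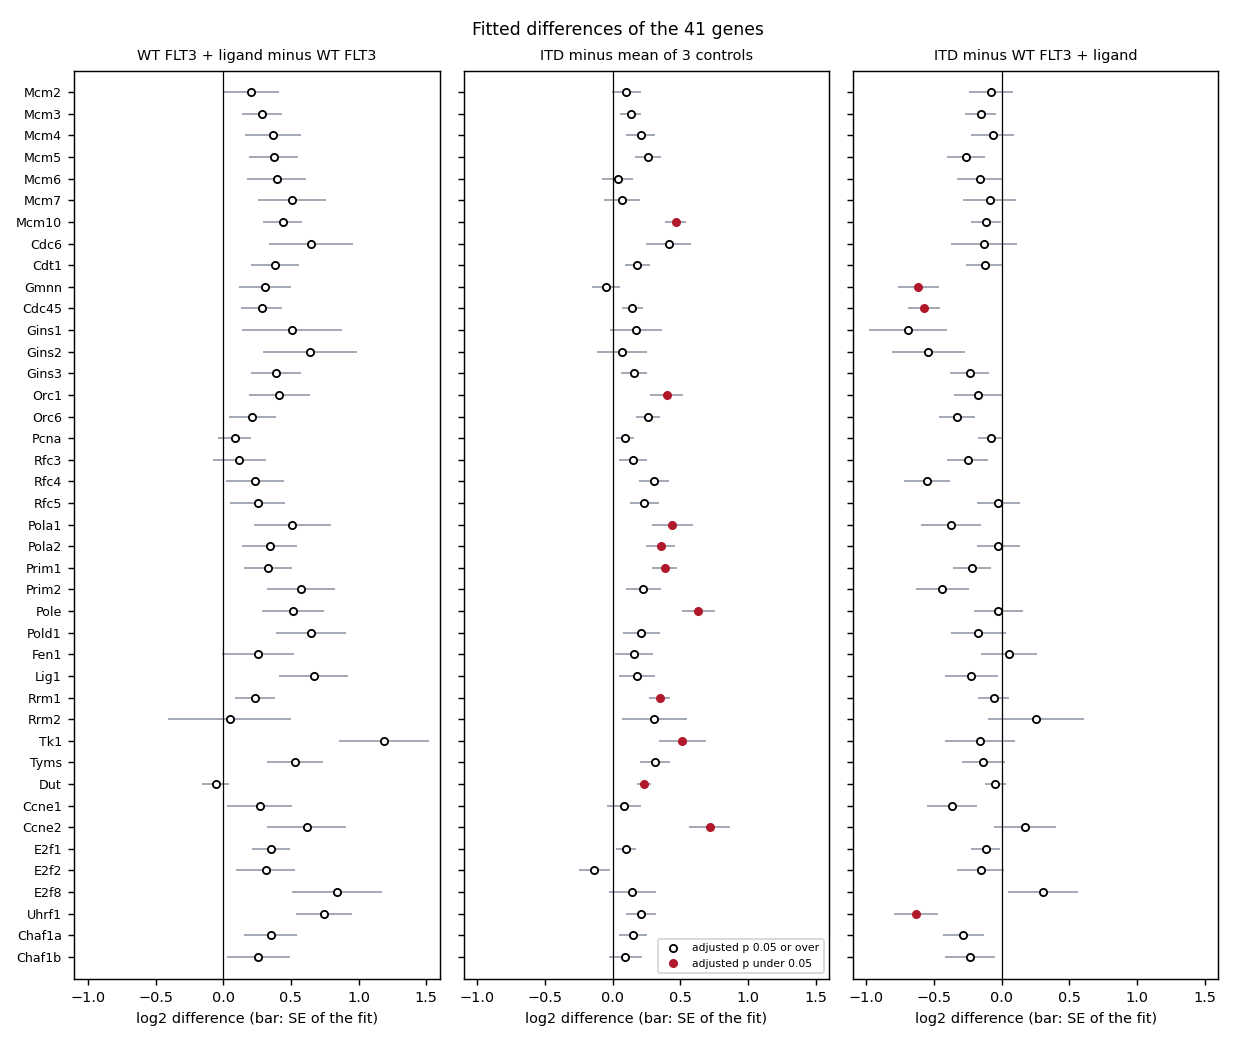
Log2 differences of the 41 genes in the fit of 17 arrays, with bars of 1 SE, for wild-type FLT3 with ligand minus wild-type FLT3, ITD minus the mean of the 3 control groups, and ITD minus wild-type FLT3 with ligand; filled points were called. The first panel has 40 positive values, the second 39, and the third 37 negative values.

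Against the ligand-stimulated wild-type receptor, the ITD lines had lower means for 37 of the 41 genes, with a median difference of −0.16, against −0.02 over all genes. Of these 3 fell and 0 rose, where 4.08% of all genes were called lower and 1.72% higher. Uhrf1 had ITD values of 9.72, 10.34 and 10.55 (lowest, median, highest), against 10.90 and 10.84 with ligand, and differed by −0.64 ± 0.16 (adjusted p = 0.0275). All ITD lines were below both ligand arrays for 5 members, Uhrf1, Gmnn, Cdc45, Rfc4 and Chaf1a, as for 9.07% of all genes. Gmnn had ITD values of 9.36, 9.80 and 10.03, against 10.28 and 10.48 with ligand, again without overlap, and differed by −0.62 ± 0.15 (adjusted p = 0.0232). Cdc45, which travels with the helicase, had ITD values of 9.03, 9.34 and 9.56, against 9.89 and 9.86 with ligand, and differed by −0.58 ± 0.12 (adjusted p = 0.00675). Its arrays without ligand (9.57 and 9.61) were also above all ITD lines, as were those of Gmnn (10.033 and 10.113, highest ITD line 10.031). E2f8, Rrm2, Ccne2 and Fen1 had positive differences, of 0.30, 0.25, 0.17 and 0.06, and none was called. The count of 3 was 0 without either ligand array and 1 after a second quantile normalisation. The ITD comparisons with wild-type FLT3 and ligand, and the ligand comparison itself, share arrays.

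The control lines also differed from each other. With wild-type FLT3 as against vector cells, 4 members rose and 1 fell, beside 5.5% higher and 2.71% lower among all genes. Rfc4 was higher by 0.98 ± 0.22, Cdc45 by 0.83 ± 0.15, Rfc3 by 0.76 ± 0.20 and Dut by 0.61 ± 0.10, and E2f8 was lower, at −1.30 ± 0.33 (adjusted p = 0.0208). The count of 5 was between 2 and 8 when 1 array was left out. The median over the members was 0.11, and it changed sign after a second quantile normalisation, to −0.02. In vector cells as against parental cells, 0 members were called, where 1.27% of all genes were called higher and 0.959% lower. Of the members, 5 had an unadjusted p under 0.05, beside 14.5% of all genes, which is no smaller a share. The median was −0.13, against 0.03 over all genes. The difference was negative for 30 members and positive for 11, where 54.1% of all genes were positive. The largest differences were in Lig1 (−0.65 ± 0.25), Rfc3 (−0.65 ± 0.20), Mcm6 (−0.65 ± 0.22) and Mcm7 (−0.50 ± 0.25). In the fit of the 8 arrays alone, 14 members were called higher and 4 lower in wild-type FLT3 than in vector cells, beside 15.4% and 7.59% of all genes. In vector cells against parental cells that fit called 2 higher and 10 lower, beside 6.2% and 7.5% of all genes. Mast cell and basophil markers also differed between these lines, with array medians of −1.18 and −1.14 in wild-type FLT3, −0.04 and 0.19 in vector cells, and 1.54 and 1.41 in parental cells, and their part in these differences was not tested.

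The 9 ITD lines differed from each other in these genes more than paired control arrays did. The SD over the ITD lines had a median of 0.27 over the 41 genes, against 0.07 within the control pairs, while over all genes the medians were 0.20 and 0.12. In a one-sided F test of the 2 variances, 6 members were called, as were 2.55% of all genes, and 36 of 41 had an unadjusted p under 0.05, against 24.3% of all genes. The 6 were Tk1 (SD 0.46, adjusted p = 0.0213), Gins1 (0.52), Prim1 (0.23), Gins2 (0.48), Chaf1b (0.31), a subunit of the histone chaperone that assembles nucleosomes on new DNA, and Mcm7 (0.35). The largest SD was that of Rrm2 (0.60), whose control pairs also varied. Dut varied least, with an SD of 0.08. The count of 6 was 1 without line 7, 2 without line 4 and 3 without line 9. Without line 7 the calls over all genes also fell, from 516 to 157, and 28 members still had an unadjusted p under 0.05 in this F test.

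**Figure D4:**
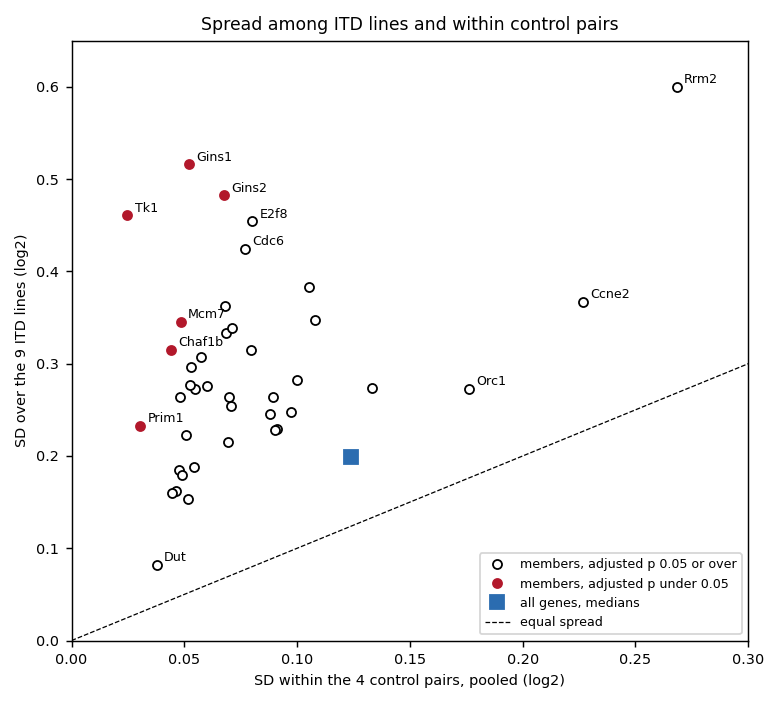
SD over the 9 ITD lines (vertical, log2) against the pooled SD within the 4 control pairs (horizontal, log2) for each of the 41 genes; filled points were called and the square marks the medians over all genes. All 41 genes lie above the dashed line of equal spread.

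Line 7 was the lowest ITD line in 35 of the 41 genes, while it was lowest for 16.8% of all genes. Its median difference from the mean of the other 8 lines was −0.56 over the members, against 0.03 over all genes. It lay below all 6 control arrays in 22 members and above them in 1, Rrm2, beside 16.2% of all genes below and 16.9% above. Line 4 was next, at −0.21. Line 9 was the highest line in 19 members, as for 14.2% of all genes, with a median of 0.31 above the other 8. Yet line 9 had the lowest ITD values for Pola1 (7.97) and Cdc45 (9.03). Each ITD mutant had 1 array, so no line was tested, and a difference between lines and one between cultures cannot be told apart. In line 7, 719 of the genes' 758 probe sets (94.9%) were below the mean of the other ITD lines. With ligand, 711 (93.8%) were higher than without, and in ITD lines 623 (82.2%) were higher than in the control mean. Shares over all probe sets are not given here. The probe sets of a gene read the same RNA, so these counts are not independent support. In line 7 the macrophage list had the highest median of the 9 ITD lines (−0.23), as did the dim lymphoid list (0.16). The myeloblast list had the lowest (−0.41). The neutrophil list (−1.02), the mast cell and basophil list (0.05) and the erythroid list (−0.29) were inside the range of the other ITD lines.

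Other genes of the cycle were set beside the members. In the ITD lines against the control mean, 11.2% of all genes were called higher and 8.15% lower, with a median of −0.01. Of 47 other replication genes with a value, 25 rose in this comparison and 0 fell, with a median of 0.33. Cdc7, the kinase that fires origins, had the largest difference (0.82 ± 0.14), followed by the origin subunit Orc2 (0.62 ± 0.10), the firing factor Ticrr (0.61 ± 0.11) and Dctd (0.58 ± 0.09), a deaminase of nucleotide synthesis. Of 23 mitosis genes 13 rose and 0 fell, with a median of 0.28, among them the kinetochore motor Cenpe (0.56 ± 0.15) and the checkpoint kinases Ttk (0.52 ± 0.15) and Bub1 (0.49 ± 0.12). With ligand, 42 of the 47 and 23 of the 23 were higher than without it, with medians of 0.31 and 0.44. Among all genes 48.7% were higher with ligand, with a median of −0.01. Of 12 genes that hold back the G1/S step, 3 rose in the ITD lines, E2f5, E2f4 and E2f6, and the antiproliferative gene Btg1 fell by 0.98. In line 7 the median over the mitosis genes was 0.02 above the control mean, against −0.27 for the 41 members and −0.16 for the other replication genes. Line 7 was the lowest of the 9 ITD lines in each of these lists, so its low position was not particular to the members. The next lowest ITD medians were 0.13 for mitosis (line 8), 0.05 for the members (line 4) and 0.19 for the other replication genes (line 8).

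**Figure D5:**
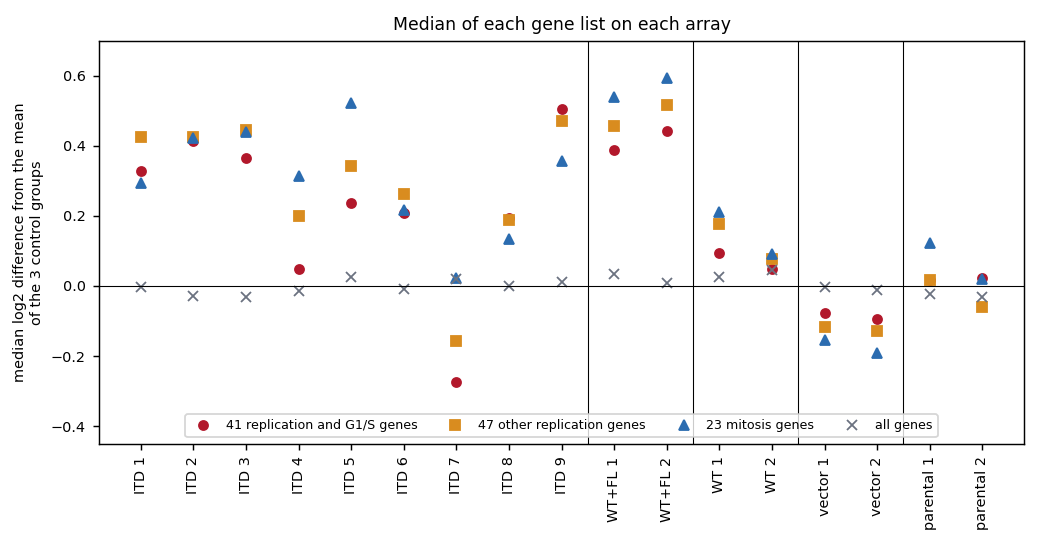
Median log2 difference from the mean of the 3 control groups on each array, for the 41 members, 47 other replication genes, 23 mitosis genes and all genes. The ligand arrays lie at 0.39 and 0.44 for the members, and ITD line 7 at −0.27.

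The promoters of the members were read for E2F motifs, since the group is known for E2F control. RefSeq promoter entries (GRCm38.p6, 250 bases before to 50 after the start) matched 34 of the 41 genes. An E2F motif, taken as TTTCCCGC, TTTCGCGC, TTTGCCGC or TTTGGCGC on either strand, was in 14 of them (41.2%). The share was 36.6% of other replication genes, 4.76% of mitosis genes and 3.59% of all genes on the arrays with an entry. CCAAT on either strand was in 58.8% of the members, 85.7% of the mitosis genes and 41.5% of genes on the arrays. The 6 stretches of 80 bases printed here show the motif, in capitals, in genes of the helicase, origin, polymerase and chromatin steps. They are written in the direction of the gene, and a capital run that reads as the reverse complement lies on the other strand.
Cdc6: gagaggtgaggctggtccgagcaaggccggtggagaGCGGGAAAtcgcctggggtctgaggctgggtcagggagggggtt
Mcm6: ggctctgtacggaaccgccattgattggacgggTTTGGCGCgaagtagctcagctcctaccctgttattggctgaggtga
Mcm7: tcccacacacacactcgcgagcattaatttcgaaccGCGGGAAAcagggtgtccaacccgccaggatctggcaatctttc
Orc1: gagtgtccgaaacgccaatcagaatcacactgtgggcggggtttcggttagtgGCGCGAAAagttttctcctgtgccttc
Pola1: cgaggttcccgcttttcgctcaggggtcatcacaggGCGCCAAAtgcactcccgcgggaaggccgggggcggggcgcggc
Uhrf1: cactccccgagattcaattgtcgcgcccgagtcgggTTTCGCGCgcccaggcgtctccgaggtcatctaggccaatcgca
These stretches are chr11:98907977-98908056 (+) for Cdc6, chr1:128359706-128359785 (−) for Mcm6, chr5:138172005-138172084 (−) for Mcm7, chr4:108579374-108579453 (+) for Orc1, chrX:93632250-93632329 (−) for Pola1 and chr17:56304092-56304171 (+) for Uhrf1. All 6 lie upstream of the annotated start. With ligand, the 14 members with a match had a median difference of 0.40 and the 20 with an entry and no match had 0.26, and in the ITD lines against the control mean the medians were 0.18 and 0.23. A match is a description of the letters and was not tested as a binding site.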

How the data were processed

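The deposited values are log2 signals per probe set of 17 arrays, made by the authors with RMA; the submitters' processing notes name Affymetrix Expression Console 1.1. The genome build and probe-set filter are not given in the sources used here. Of 1256831 probe sets, 325444 had a symbol in the platform annotation, and 6684 with several were left out. Symbols were updated through RefSeq synonyms (18006 of 22296 current, 4227 changed, 63 kept). Probe sets with a 17-array mean above 4.599, the median over all probe sets, were averaged per gene (237584 probe sets, 20227 genes).

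The 5 group means were fitted with limma 3.58.1 in R 4.3.3 (eBayes with a trend; 12 residual and 4.49 prior degrees of freedom) in 8 two-sided contrasts, adjusted by Benjamini-Hochberg over all genes. Variation among the ITD lines was tested by an F ratio (8 and 4 degrees of freedom). The scripts were tested on simulated data. The members and lists were chosen with earlier results of these data known. Called members were named, up to 12 per comparison, or the 4 largest differences where fewer than 4 were called. Alternatives covered normalisation, the filter on dim probe sets, the summary of probe sets, the trend, single arrays, single control groups, control arrays alone, and lines as units.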

Additional observations from a re-analysis of the deposited data

Results flagged for a closer look

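Among the 9 ITD lines, the gap of 1 line to its nearest neighbour was large for its gene's range (Dixon's test at the 95% level) in 6 of the 41 genes, and chance flags about 1 in 20. Line 7 was low for Mcm10 (7.989, nearest line 8.256), Rfc4 (8.941, nearest 9.457), Prim1 (9.546, nearest 9.952), Ccne2 (7.156, nearest 7.768) and E2f8 (7.732, nearest 8.659). Line 9 was high for Gins2 (9.719, nearest 8.877).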

How the results depend on the processing

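The median over the members kept its sign under every alternative run, except for wild-type FLT3 minus vector, where it was 0.11 in the fit of 17 arrays and −0.02 after a second quantile normalisation. None of the named members (0) changed sign under any alternative. Counts of called members moved more. Except on the control arrays alone, these counts are given without shares of all genes. A change particular to the members cannot be read from them. Leaving out 1 array gave 6 to 20 calls for ITD minus the control mean, 0 to 10 for ITD minus wild-type FLT3, 0 to 4 for ITD minus ligand, 0 to 13 for ITD minus parental, 1 to 18 for ITD minus vector, 0 to 0 for ligand minus wild-type FLT3, 2 to 8 for wild-type FLT3 minus vector, 0 to 2 for vector minus parental, and 1 to 6 for variation among ITD lines. ITD minus the control mean gave 4 calls without the vector group and 0 with lines as units. A second quantile normalisation gave 1 for ITD minus ligand and 11 for variation; the stricter filter gave 15 and the median of probe sets 0 for variation, and the median gave 5 for ITD minus parental. Leaving out ITD lines 7 and 9 together, an alternative chosen after seeing the data because line 7 was lowest in 35 members and line 9 highest in 19, more than any other line, gave 20 for the control mean, 11 for wild-type FLT3, 9 for ligand, 17 for parental and 18 for vector; the lines were picked by the values tested, so these counts are not independent support. On the control arrays alone the counts were 25 for ligand minus wild-type FLT3, 18 for wild-type FLT3 minus vector and 12 for vector minus parental, beside 5.68%, 23.0% and 13.7% of all genes, and with the replicate block 19, 15 and 11, beside 4.27%, 21.7% and 12%. The differences of replicate 1 from replicate 2 over all genes correlated between the control groups at −0.12 to 0.09. Whether same-numbered arrays share more than a number was not tested. With the ligand numbers crossed, also chosen after seeing the data, the replicate block gave 28, beside 7.77% of all genes. The causes were not tested. Having 2 arrays per control group limits every count.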
